A study of Homo sapiens with 18 samples.

Results

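The interaction between a stable S100A16 knockdown (KD) and hydrogen peroxide (H2O2) was measured gene by gene in poly(A) RNA of A549, a human cell line established from a lung adenocarcinoma. It is the response to H2O2 in the KD minus the response in wild-type (WT) cells. The rule took 12 of the 18 libraries of the series, which make 4 of its 6 groups of 3 libraries. They are WT and KD cells, each without treatment and after 2 h in 100 µM H2O2, and no other allele or agent is named for them. The labels call the libraries biological replicates but do not say what was separate between them, so p-values measure only the spread between these samples. Wild-type cells served as the control, and none of the groups carried a vector alone. The sources used here do not give the knockdown method or whether the KD was 1 clone, so effects of S100A16 and of making the line cannot be told apart. In bulk libraries fewer cells of a type and less RNA per cell cannot be told apart either.

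S100A16 belongs to the S100 family of small proteins that bind calcium. Within minutes to hours of a stimulus such as oxidative stress, cells transcribe immediate early genes. Kinases of the MAPK pathways phosphorylate factors already present, among them SRF with its ternary complex partners and CREB, and these switch on genes such as EGR1, FOS and JUN without new protein synthesis. The products are transcription factors and feedback inhibitors, including DUSP phosphatases that switch MAPKs off and ZFP36 proteins that destabilise short-lived mRNAs. CLK kinases phosphorylate SR proteins, which choose splice sites, and part of the CLK1 and CLK4 transcripts is itself held in the nucleus with retained introns until stress.

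Levels are CPM, counts scaled to the size of the library with TMM factors. Each response is a log2 fold change of treated over untreated libraries. The interaction is the log2 response in the KD minus that in WT, so that it is negative where the response in the KD was the lower one. A gene was called where edgeR's quasi-likelihood test gave a Benjamini-Hochberg adjusted p under 0.05 over all 21551 genes tested. Of these genes 256 (1.19%) were called in the interaction, 158 (0.733%) with a lower and 98 (0.455%) with a higher response in the KD. An unadjusted p under 0.05 was reached by 2458 genes (11.4%). The H2O2 response itself was called for 551 genes (2.56%) in WT and for 775 (3.6%) in the KD. Leaving out library 1 or 2 of untreated WT or library 3 of treated WT took the WT count to 277, 252 and 252, and leaving out library 2 of the treated KD took the KD count to 431. Of the WT calls, 30 genes rose and 13 fell at least 2-fold, against 3 and 11 in the KD. The interaction passed 2-fold for 26 of the genes called lower and for 2 of those called higher.

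The libraries held 37005520 to 48482897 counts. S100A16 itself was 116, 119 and 118 CPM in untreated WT and 8.92, 8.29 and 7.74 CPM in the untreated KD. KRT8 and KRT18, keratins of simple epithelia, were at 1319 CPM or more in every library. Other epithelial markers were lower, such as EPCAM (4.05 to 6.44 CPM), KRT19 (0.533 to 1.37) and CLDN7 (0.25 to 0.928). KRT7 was at 481 to 565 CPM in WT and at 216 to 255 in the KD. Epithelial and lung markers (13) summed to 5224 to 5653 CPM in untreated WT and 5535 to 5976 in treated WT. They summed to 7436 to 7940 CPM in the untreated KD and 8425 to 8900 in the treated KD. The surfactant genes SFTPB, SFTPC and SFTPD and the lung factor NKX2-1 were at 0.201 CPM or less. Endothelial markers (9) summed to 0.546 to 1.34 CPM, and the leukocyte genes CD3D and CD3E were at 0 in all WT libraries. Fibroblast markers (10) summed to 87 to 118 CPM in untreated WT, 91 to 94.7 in treated WT, 50.9 to 59.1 in the untreated KD and 48.8 to 56.6 in the treated KD. Leukocyte markers (12) summed to 94.6 to 105, 95.8 to 110, 134 to 144 and 144 to 156 CPM in the same order. In each group 9 or 10 of the 12 leukocyte markers and 6 of the 10 fibroblast markers averaged under 1 CPM, so few genes made up these sums. Markers of these 4 kinds had 0 genes called in the interaction. Of the 26 tested 5 had an unadjusted p under 0.05, against 11.4% of all genes, and 1 was called by DESeq2. The part of these marker differences in the results below was not tested. Library 1 of the untreated KD stood apart. It differed from its replicates by a chi-square per degree of freedom of 26.7 and 27.7, against 2.97 to 4.98 for every other pair. Its 8 short structured RNAs, such as 7SK, summed to 622 CPM, while the other libraries held 36.7 to 74.6. Without it 292 genes were called in the interaction, 117 lower and 175 higher, with 194 of them among the 256.

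The lowest interactions among the called genes named here were those of immediate early genes, so some of their promoters are shown. The 150 bases before the RefSeq start of EGR1 (chr5:138465329-138465478, plus strand), FOS (chr14:75278678-75278827, plus), FOSB (chr19:45467846-45467995, plus) and DUSP1 (chr5:172771196-172771345, minus) are given 5′ to 3′ from RefSeq on GRCh38.p14, with that of CLK4 (chr5:178627051-178627200, minus), one of the highest genes, for contrast. Capitals mark CArG boxes, the site read by SRF, the letters TGACGTCA, the full site of CREB and ATF proteins, and TATAAA, each searched on both strands.

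EGR1: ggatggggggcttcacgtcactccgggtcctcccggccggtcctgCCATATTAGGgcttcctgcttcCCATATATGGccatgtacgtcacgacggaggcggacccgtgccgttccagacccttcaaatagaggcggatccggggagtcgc
FOS: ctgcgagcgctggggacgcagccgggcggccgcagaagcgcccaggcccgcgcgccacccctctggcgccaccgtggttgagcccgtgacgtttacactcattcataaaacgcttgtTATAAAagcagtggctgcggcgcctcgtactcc
FOSB: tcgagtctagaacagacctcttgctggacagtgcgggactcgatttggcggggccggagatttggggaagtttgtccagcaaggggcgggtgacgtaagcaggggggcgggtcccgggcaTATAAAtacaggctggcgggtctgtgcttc
DUSP1: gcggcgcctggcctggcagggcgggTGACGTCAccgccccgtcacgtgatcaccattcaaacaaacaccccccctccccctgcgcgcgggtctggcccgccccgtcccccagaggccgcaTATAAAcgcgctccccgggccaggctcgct
CLK4: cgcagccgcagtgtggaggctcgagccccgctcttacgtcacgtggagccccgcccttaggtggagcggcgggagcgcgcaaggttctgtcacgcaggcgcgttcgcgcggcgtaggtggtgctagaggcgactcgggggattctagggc

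EGR1 held a pair of CArG boxes, the first starting at -105 and the second at -83, counting the base before the start as -1. TATAAA started at -33 in FOS, and at -30 in both FOSB and DUSP1. DUSP1 also held TGACGTCA at -125, and CLK4 held none of the letters marked above in this stretch. A RefSeq window of 250 bases before to 50 after a start was found for 12081 of the tested genes (56.1%) and for 146 of the 256 called. The windows of NR4A1, IER2, JUN and ZFP36, which were also called lower, held none of the letters marked above. Those of CLK1 held none either. TATAAA lay in a window of 28.6% of the 84 such genes called lower, of 9.68% of the 62 called higher and of 9.1% of all 12081. Among the 35 with an interaction of -0.5 or below it lay in 45.7%, such as FOS, FOSB, JUNB, ATF3, DUSP1, PTGS2, CXCL8 and EREG. A CArG box lay in 4.76% of the genes called lower (EGR1, SRF, HNMT and PTCH1, of which HNMT and PTCH1 lost their calls in 8 and 10 of the 12 fits without 1 library), in none called higher and in 1.57% of all. TGACGTCA lay in 8.33% of those called lower, 8.06% of those called higher and 3.6% of all. Its shorter part TGACG, which is not marked above, lay in 52.4% of those called lower, 56.5% of those called higher and 39% of all. EGR1, FOS, FOSB, IER2 and JUN held TGACG, and so did CLK1 and CLK4. These matches describe letters within the windows and not binding, and sites further from a start, in FOS as in other genes, were not searched. The genes called lower were also compact. Their 95 protein-coding members had a median span of 8844 bases and 5 merged exons, against 33155 bases and 11 exons for all 13841 tested coding genes and 35059 bases and 12 exons for the 77 called higher.

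Most EGR and AP-1 transcription factors rose in WT after H2O2, up to 29.4-fold for EGR1, and had a lower response in the KD. Of 14 listed factors 13 were tested, and 7 of them were called lower in the interaction, against 0.733% of all genes. In WT 11 of the 13 rose, against 1.49% of all genes. In the KD 2.38% of all genes rose and 1.22% fell, and 0 of the 13 passed edgeR's test, with 6 at an unadjusted p under 0.05 and 3 called by DESeq2 (EGR1, FOS and FOSL1, each higher). The median response was 0.84 on the log2 scale in WT and 0.17 in the KD, with a median interaction of -0.68 against -0.0008 over all genes.

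EGR1, a zinc finger activator (GRCh38 chromosome 5, 138465490 to 138469315), was 1.78, 1.85 and 1.26 CPM in untreated WT and 48.8, 52.1 and 42.8 after H2O2. KD libraries held 1.41, 1.17 and 1.96 CPM untreated and 2.06, 4.7 and 2.61 after H2O2. The groups did not overlap in either line, but every treated KD library was below every treated WT library. The response was 4.88 in WT (adjusted p = 2e-05) and 1.05 in the KD (adjusted p = 0.182). The interaction was -3.83 ± 0.49 (SE, adjusted p = 0.00988), the lowest among the called genes named here.

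FOS, the partner of JUN in AP-1 (chromosome 14, 75278774 to 75282230), was 6.74, 7.45 and 7.22 CPM in untreated WT and 78.1, 79 and 69.8 after H2O2. The KD levels were 7.29, 7.33 and 7.72 untreated and 7.56, 14.7 and 10.9 treated. The untreated lines overlapped, and within the treated KD the second library was highest for both FOS and EGR1. The FOS interaction was -2.83 ± 0.29 (adjusted p = 0.00255).

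FOSB, a relative of FOS, rose from 1.18, 0.948 and 0.632 CPM to 8.59, 8.68 and 6.37 in WT, and was 0.847, 1.05 and 1.02 against 1.07, 1.34 and 0.678 in the KD. Its KD groups overlapped, and the interaction was -3.01 (adjusted p = 1.18e-09). JUN (chromosome 1, 58780788 to 58784327) rose from 28.6, 26.1 and 27.6 CPM to 68.7, 73.7 and 76.5 in WT. The KD held 43.5, 46.5 and 49.1 CPM of it before and 45.7, 48.6 and 46.5 after H2O2. JUN thus stood higher in the untreated KD than in untreated WT, with no overlap, and lower in the treated KD than in treated WT. Its interaction was -1.4 ± 0.07 (adjusted p = 5.17e-21), with a KD response of 0.02 (adjusted p = 0.926). In a fit over all 18 libraries, which takes in the other knockdowns, the JUN call was lost (adjusted p = 0.619).

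The other called factors were JUNB (interaction -0.66), ATF3 (-0.68), a stress-induced member of the ATF family, and SRF (-0.47), which binds CArG boxes. SRF lost its call in 6 of the 12 fits that left out 1 library. The remaining 6 tested factors were not called in the interaction. FOSL1 (0.41), JUND (0.42), MAFF (0.5) and EGR2 (3.72) rose in WT, with interactions of -0.24, -0.2, -0.33 and -2.69, and EGR2 had a mean of only 1.02 CPM in treated WT. EGR3 (WT response 2.57, adjusted p = 0.0658) and FOSL2 (-0.04) did not pass in WT either.

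**Figure D1:**
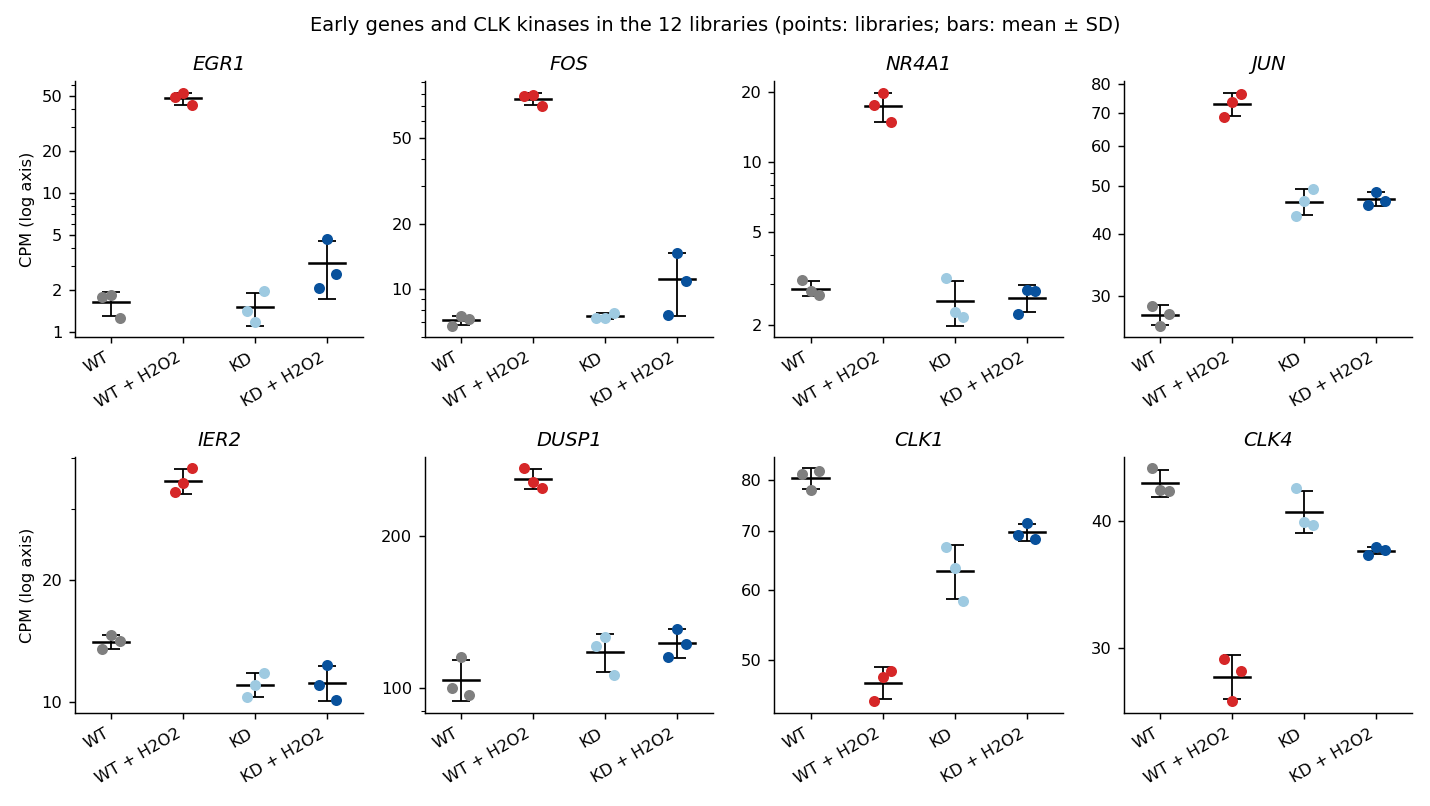
CPM (log axis) of 6 early genes and 2 CLK kinases in the 12 libraries, 1 point per library, with bars for the mean ± SD of each group of 3. The 3 treated WT libraries stand above all others for EGR1, FOS, NR4A1, JUN, IER2 and DUSP1 and below all others for CLK1 and CLK4.

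Among the NR4A orphan receptors with IER, KLF and related early genes, 24 were listed and 23 tested. Of these 10 were called lower and 1 (IER5) higher, against 0.733% and 0.455% of all genes. The remaining 12 were not called, such as NR4A3 (adjusted p = 0.677). In WT 14 rose, against 1.49% of all genes. In the KD 3 rose and 1 fell, against 2.38% and 1.22%. The median responses were 0.49 in WT and 0.07 in the KD. NR4A1, a nuclear receptor that acts without a known ligand, was 3.12, 2.8 and 2.71 CPM in untreated WT and 17.5, 19.7 and 14.8 after H2O2. It was 3.18, 2.29 and 2.17 CPM in the untreated KD and 2.23, 2.84 and 2.81 in the treated KD. The KD groups overlapped, and the interaction was -2.54 ± 0.19 (adjusted p = 1.83e-13).

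NR4A2 rose from 3.35, 4.65 and 3.5 CPM to 9.64, 8.47 and 8.18 in WT. Its KD levels were 6.85, 6.74 and 6.34 untreated and 4.68, 5.21 and 6.12 treated, a lower level without overlap that did not pass the test (response -0.32, adjusted p = 0.116). The NR4A2 interaction was -1.51 ± 0.16. IER2 rose from 13.5, 14.6 and 14.1 CPM to 32.9, 34.7 and 37.7 in WT and was 10.3, 11 and 11.8 against 11, 12.3 and 10.1 in the KD. Both KD groups of IER2 lay below both WT groups, and its interaction was -1.3. IER3, an early gene of survival signalling, went from a mean of 20.1 to 37.2 CPM in WT and stayed near 19.5 to 19.8 CPM in the KD.

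KLF10, a TGF-beta-inducible repressor, had an interaction of -0.86, KLF6 of -0.66 and RHOB, a small GTPase, of -0.66. MCL1, an anti-apoptotic BCL2 relative with an interaction of -0.44, rose from 99.6, 101 and 94.2 CPM to 130, 130 and 134 in WT. In the KD its levels were 144, 142 and 142 CPM untreated and 136, 140 and 147 treated. The matricellular genes CTGF and CYR61 (CCN2 and CCN1) rose in both lines but less in the KD. CTGF rose by 1.06 in WT and by 0.23 in the KD, and CYR61 by 0.94 and 0.24. IER5 went the other way with an interaction of 0.25 (adjusted p = 0.0395), and neither of its responses passed the test. Its call was lost in 7 of the 12 fits that left out 1 library. Without the untreated KD library 1, 12 of this list were called lower.

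Feedback regulators of these pathways were called lower for 9 of 21 tested (22 listed) and higher for 0. Over all genes these shares were 0.733% and 0.455%. In WT 9 of the 21 rose, against 1.49% of all genes. In a fit over all 18 libraries 1 of the 21 was called. In the KD 0 of the 21 passed edgeR's test, with 4 at an unadjusted p under 0.05 and 0 called by DESeq2 or limma. DUSP1, a nuclear MAPK phosphatase, rose from 99.7, 115 and 96.7 CPM to 272, 256 and 249 in WT. It was 121, 126 and 106 CPM in the untreated KD and 115, 131 and 122 in the treated KD. The KD groups of DUSP1 overlapped and lay below treated WT, and the interaction was -1.26 ± 0.12 (adjusted p = 0.000741, and 0.0576 over 18 libraries).

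ZFP36, which binds AU-rich elements and speeds mRNA decay, rose from 12.2, 11.9 and 11.6 CPM to 33.2, 32.7 and 28.1 in WT. It was 7.48, 8.25 and 10.1 CPM in the untreated KD and 9.36, 10.3 and 9.8 in the treated KD, below WT in both states. The ZFP36 interaction was -1.21 and that of its relative ZFP36L1 -0.39. DUSP6, a phosphatase for ERK, had an interaction of -0.94, which lost its call over 18 libraries (adjusted p = 0.798). It was 8.97, 6.91 and 7.41 CPM in untreated WT, 14, 12.6 and 14.2 in treated WT, 20, 18.8 and 15.6 in the untreated KD and 16.3, 16 and 17.2 in the treated KD. In the untreated KD DUSP6 was thus above all treated WT libraries.

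DUSP5 (-0.69), SPRY2 (-0.51), TRIB1 (-0.48), PHLDA1 (-0.45) and ERRFI1 (-0.27), inhibitors or dampers of growth factor signalling, were called lower as well. Leaving out 1 library removed the call of DUSP5 in 4 of 12 fits and those of TRIB1 and SPRY2 in 7 each. The other DUSP, SPRY and SPRED genes tested, such as DUSP4 (interaction -0.16) and SPRY4 (-0.32), were not called, and none of them passed the test in WT.

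**Figure D2:**
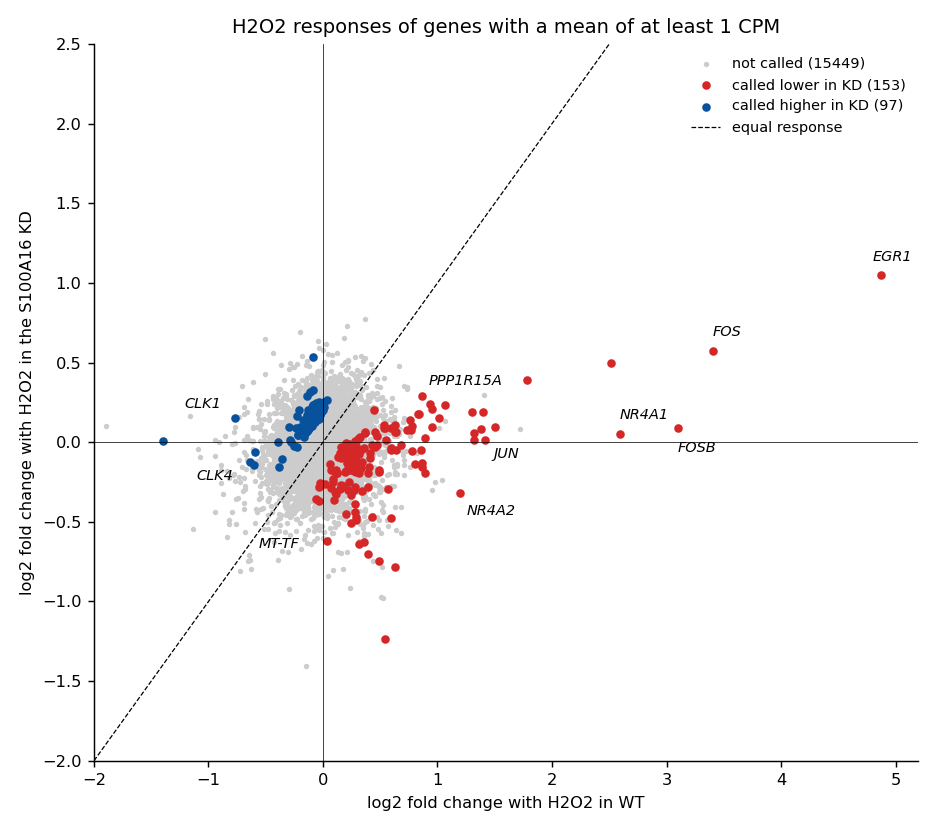
Each point is a gene that averaged 1 CPM or more over the libraries, placed by its log2 fold change with H2O2 in WT (horizontal) and in the S100A16 KD (vertical), and the dashed line marks equal responses. The 153 genes called lower (red) reach 4.88 in WT but at most 1.05 in the KD, the 97 called higher (blue) include CLK1 and CLK4, and 18 genes lie outside the axes.

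Of 28 listed NF-kB and inflammatory genes 25 were tested, and 9 were called lower, against 0.733% of all genes, and 0 higher. In WT 10 rose and in the KD 1, against 1.49% and 2.38% of all genes. In 7 of the 9 called (CXCL2, CXCL1, IL6, CXCL8, CCL2, NFKBIZ and LIF) every untreated KD library stood above every untreated WT library, while IER3 overlapped and PTGS2 stood below. CXCL2, a neutrophil-attracting chemokine, was 1.8, 2.19 and 2.71 CPM in untreated WT and 6.4, 6.09 and 6.51 after H2O2. KD libraries had 13.6, 12.7 and 11.3 CPM untreated and 12.6, 13.1 and 14.5 treated. The level in the untreated KD was 5.62 times that of untreated WT and above that of treated WT. The CXCL2 interaction was -1.4 ± 0.15 (adjusted p = 2.49e-09), and over 18 libraries its call was lost (adjusted p = 0.374).

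CXCL1 was 1.09, 1.62 and 1.6 CPM in untreated WT and 3.08, 2.93 and 2.69 after H2O2, and in the KD 9.86, 11.6 and 10.8 against 11.5, 11.3 and 13. Its interaction was -0.86 ± 0.17 (adjusted p = 0.00335), and the call was lost without library 1 of untreated WT and over 18 libraries. IL6 and CXCL8 showed the same order, with untreated KD levels 6.84 and 6.62 times those of WT and interactions of -1.39 and -1.12. CCL2, a monocyte chemokine, rose from 14, 13.6 and 13.3 CPM to 21.7, 19.8 and 21.9 in WT and was 26.7, 31.4 and 24.8 against 28.3, 30.3 and 30.8 in the KD. NFKBIZ, an inducible co-regulator of NF-kB, rose from 12.5, 14.3 and 12.6 CPM to 22.3, 21.9 and 22.5 in WT. In the KD NFKBIZ was 45, 45.4 and 43.6 CPM untreated and 46.9, 48.9 and 51.7 treated, with an interaction of -0.62.

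PTGS2, the inducible cyclooxygenase, stood lower in the KD than in WT in both states. It rose from 33, 31.3 and 30.2 CPM to 56.2, 51.6 and 54.3 in WT and was 22.4, 21.2 and 20.9 against 19.7, 21.5 and 20.7 in the KD (interaction -0.84). LIF, a cytokine of the IL-6 family, rose by 0.28 in WT and fell by 0.18 in the KD. NFKBIA, the NF-kB inhibitor, rose in both lines, by 0.18 in WT and 0.29 in the KD, with an interaction of 0.12 (adjusted p = 0.511). TNFAIP3, ICAM1, TRAF1 and BIRC3 passed in neither line and had interactions from -0.23 to -0.02.

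**Figure D3:**
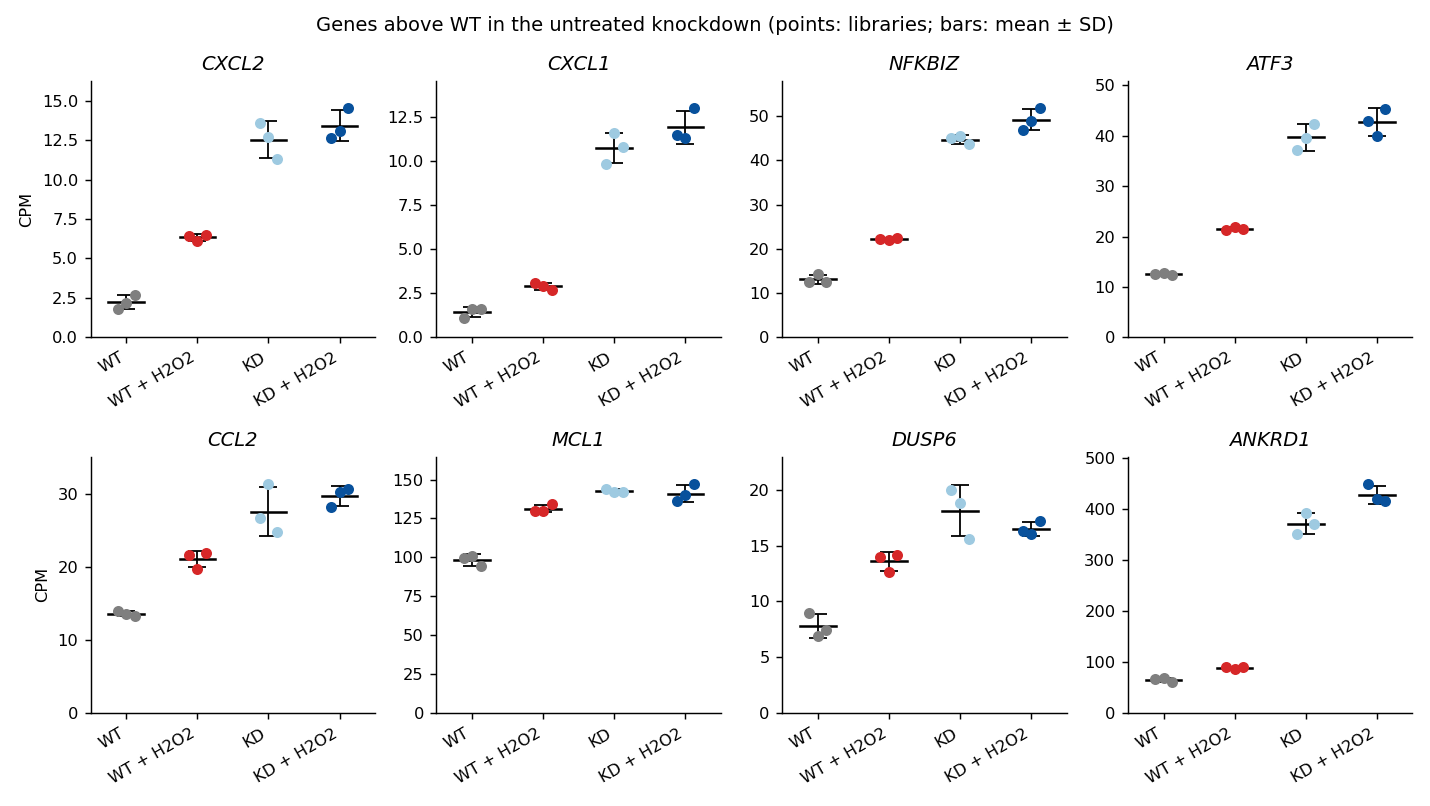
CPM (linear axis from 0) of 8 genes that stood higher in the untreated KD than in untreated WT and were called lower in the interaction, chosen after their values were seen, 1 point per library with the mean ± SD of each group of 3. For CXCL2 the untreated KD libraries (11.3 to 13.6) already stand above treated WT (6.09 to 6.51).

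Some other lists held a few genes called lower, against 0.733% of all genes. PPP1R15A (GADD34), which restarts translation by recruiting a phosphatase to eIF2-alpha, rose in both lines. It went from 169, 170 and 158 CPM to 300, 295 and 308 in WT and from 197, 214 and 211 to 254, 252 and 256 in the KD, and its interaction was -0.57 ± 0.05 (adjusted p = 4.88e-11). It was the 1 called gene of 24 tested in the ATF4 list. Of 21 YAP and TEAD targets 4 were called lower, CTGF, CYR61, NUAK2 (-0.63) and ANKRD1 (-0.24). ANKRD1 stood at 351, 393 and 371 CPM in the untreated KD against 66.3, 67.9 and 61.1 in WT, and rose in both lines, by 0.45 in WT and 0.21 in the KD. Its interaction call was lost in 6 of the 12 fits without 1 library. Of 12 EGF receptor family genes tested the ligands EREG (-0.56) and AREG (-0.29) were called lower, and both rose in WT and did not pass the test in the KD. MUC6, a gel-forming mucin, rose by 0.43 in WT and fell by 0.47 in the KD (interaction -0.9, adjusted p = 0.000555, and 0.367 over 18 libraries).

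Genes of the S100 family other than S100A16 moved by small amounts. S100A4 was 54, 56.1 and 53.6 CPM in untreated WT, 60.1, 61.5 and 65.7 in treated WT, 58.5, 57.9 and 49.2 in the untreated KD and 49.5, 47.9 and 47.7 in the treated KD. It rose in WT and fell in the KD, with an interaction of -0.38 ± 0.07. S100A6 had an interaction of -0.21 (adjusted p = 0.0262), a call lost in 8 of the 12 fits without 1 library. S100A16 itself fell further in the KD after H2O2, from 8.92, 8.29 and 7.74 to 6.72, 7.2 and 6.41 CPM, while WT went from 116, 119 and 118 to 123, 118 and 129 (interaction -0.36, adjusted p = 0.00935). Without the untreated KD library 1 the adjusted p of S100A16 was 0.0787, and 1 of the 12 tested S100 genes was called.

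Targets of NRF2, the factor that drives antioxidant genes, had small interactions. Of 29 tested 2 were called lower, against 0.733% of all genes. These were NQO1 (-0.19), a quinone reductase, and TXN (-0.31), thioredoxin. NQO1 lost its call in 11 of the 12 fits without 1 library and with DESeq2 size factors, while TXN kept its call in all 12. Of the list 6 rose in WT, against 1.49% of all genes, and 3 rose and 2 fell in the KD, against 2.38% and 1.22%. TXN rose from 295, 325 and 326 CPM to 361, 393 and 390 in WT and was 231, 230 and 217 against 208, 224 and 230 in the KD. HMOX1, heme oxygenase 1, did not pass the test in WT (0.06), in the KD (0.13) or in the interaction (0.07, adjusted p = 0.868). TXNRD1 had an interaction of -0.01 ± 0.05 (adjusted p = 0.968). Some lists had 0 genes called in the interaction by edgeR's test and by limma. Over all genes tested 11.4% reached an unadjusted p under 0.05 in the interaction. The numbers at an unadjusted p under 0.05 were 3 of 22 other antioxidant enzymes, 3 of 19 genes of the endoplasmic reticulum unfolded protein response, 3 of 30 mitosis genes, 4 of 29 glycolysis and hypoxia genes, 9 of 42 interferon-stimulated genes, 3 of 12 replication-dependent histones and 8 of 22 cytoskeletal targets of SRF and MRTF. DESeq2 called 5 of the cytoskeletal targets higher and 0 of the others.

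**Figure D4:**
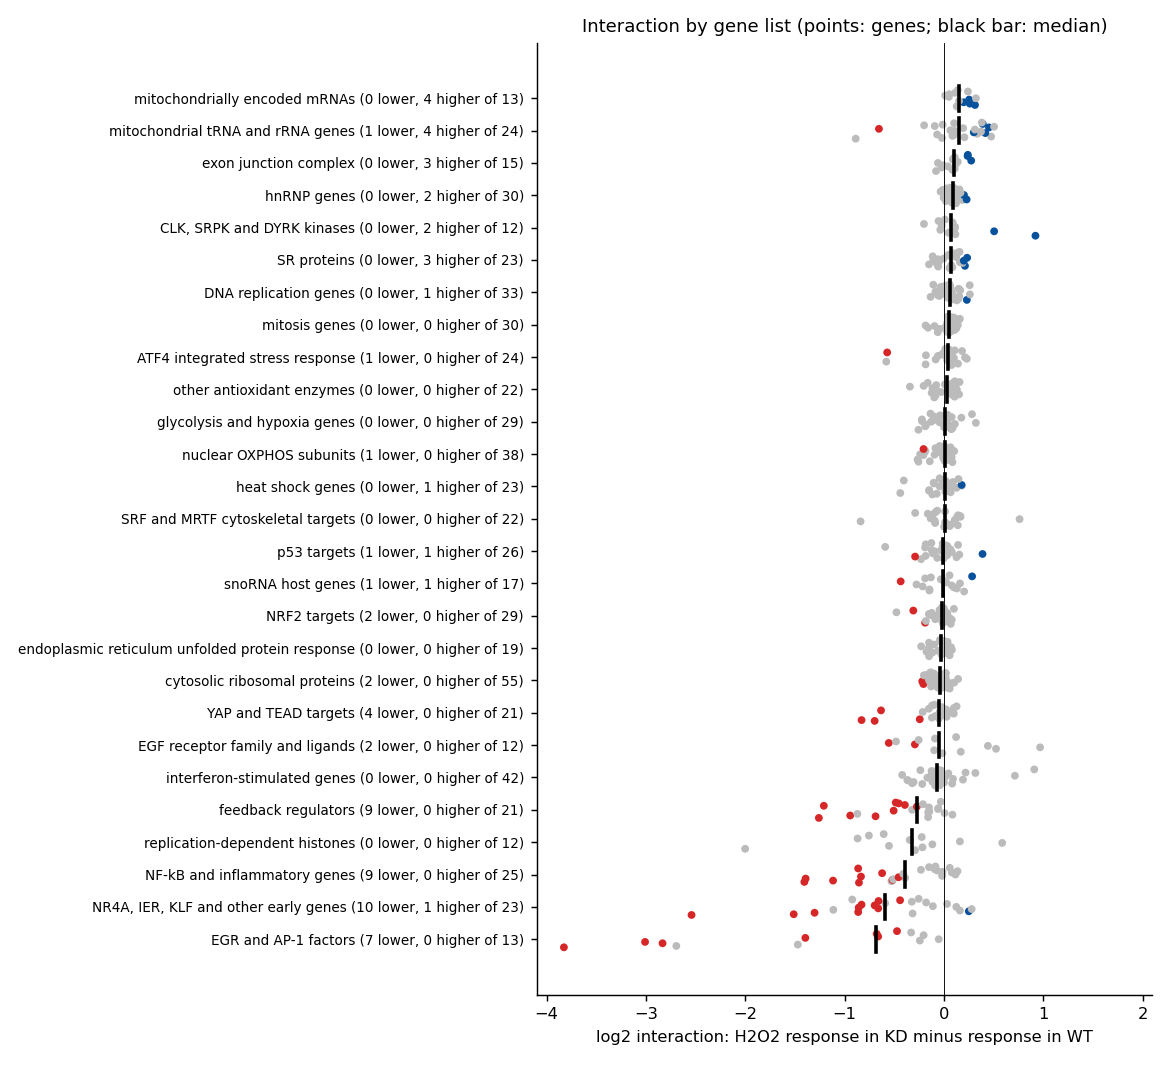
Each point is a tested gene of the named list, placed by its log2 interaction, with red for genes called lower, blue for genes called higher, grey for the rest and a black bar for the median of the list. The medians run from -0.68 for EGR and AP-1 factors to 0.15 for mitochondrial transcripts.

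Among the 77 protein-coding genes called higher CLK1, a kinase that phosphorylates SR splicing factors, had the highest interaction. CLK1 (chromosome 2, 200853009 to 200864744) was 81.3, 77.9 and 81.9 CPM in untreated WT and 44.8, 47.8 and 48.5 after H2O2. KD levels were 67.1, 63.6 and 58.3 CPM untreated and 69.3, 71.5 and 68.6 treated. CLK1 therefore fell by 0.77 in WT and rose by 0.15 in the KD (adjusted p = 0.0439), with no overlap within either line. The KD rise was called by DESeq2 but not by limma. Its interaction was 0.92 ± 0.06 (adjusted p = 2.58e-15).

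CLK4 (chromosome 5, 178602664 to 178630615) fell from 45.1, 42.9 and 42.8 CPM to 29.3, 26.6 and 28.5 in WT. The KD had 43.1, 39.9 and 39.7 CPM untreated and 37.1, 37.7 and 37.5 treated, a response of -0.13 that did not pass the test (adjusted p = 0.158). The CLK4 interaction was 0.51 ± 0.07 (adjusted p = 2.91e-06). CLK2 fell by 0.18 in WT but had an interaction of 0.12 (adjusted p = 0.514), and CLK3 had one of 0.05. Of 12 tested CLK, SRPK and DYRK genes only CLK1 and CLK4 were called, against 1.19% of all genes. Those calls held in all 22 alternative fits. Counts per gene do not separate spliced from intron-retaining transcripts.

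Splicing and decay factors had small interactions. Over all genes 0.455% were called higher in the interaction. Of 23 SR protein genes 3 were called higher, SRSF4 (0.21), SREK1 (0.23) and SRSF11 (0.2). Of 30 hnRNP genes 2 were called higher, HNRNPDL (0.23) and HNRNPM (0.2), and of 15 exon junction complex genes 3, UPF3A (0.24), UPF3B (0.24) and PYM1 (0.28). HNRNPDL was 384, 349 and 348 CPM in the untreated KD and 423, 435 and 437 in the treated KD, against 533, 554 and 546 and then 566, 531 and 574 in WT. In the KD 6 SR, 8 hnRNP and 5 exon junction complex genes rose, against 2.38% of all genes. The interaction counts changed with single libraries. Leaving out 1 library gave 0 to 5 SR, 0 to 6 hnRNP and 0 to 4 exon junction complex genes. The SR count was 0 without library 1 or 2 of untreated WT, the hnRNP count 0 without library 2 of untreated WT or of treated WT, and the exon junction complex count 0 without library 1 of untreated WT.

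Among other genes called higher, LPCAT4, a lysophospholipid acyltransferase, fell by 0.59 in WT and had an interaction of 0.53. IMPA1, an inositol monophosphatase, went from 14.8, 17 and 15.7 CPM to 19.1, 19.3 and 19.6 in the KD, with an interaction of 0.43. GABPB1, a subunit of the ETS factor GABP, had an interaction of 0.43 (adjusted p = 0.0141), which was lost without library 1 of untreated WT or library 2 of treated WT. GADD45A, a p53 and stress target, fell from 32.1, 33.9 and 31.7 CPM to 28.8, 27.2 and 27.7 in WT and rose from 73.9, 73.8 and 78.8 to 83, 81.7 and 89.1 in the KD. The GADD45A interaction was 0.39 ± 0.06 (adjusted p = 0.000101). PMAIP1 (NOXA), another p53 target, had an interaction of -0.29, but its call was lost in 6 of the 12 fits without 1 library. Of 26 tested p53 targets these were the 2 called, against 1.19% of all genes. Without the untreated KD library 1 there were 3 called lower.

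MIR34A had an interaction of 0.4. That row spans the host transcript and is not the mature miRNA. TFAP4 (0.33), MSANTD3-TMEFF1 (0.32), FAM207A (0.32) and EPB41L4A (0.32) were also called. EPB41L4A-AS1, a snoRNA host with an interaction of 0.28, lies within the span of EPB41L4A on the other strand, so that without a stated strand setting reads of the pair cannot be told apart. The snoRNA host SNHG15 went lower (-0.44), HSP90AB1, a cytosolic chaperone, higher (0.18), and MCM3, a subunit of the replicative helicase, higher (0.23). Leaving out 1 library removed the calls of FAM207A, TFAP4 and EPB41L4A-AS1 in 6 of 12 fits each and that of HSP90AB1 in 7.

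Many transcripts of the mitochondrial genome fell in WT. Of 13 mitochondrial mRNAs 9 fell in WT, against 1.06% of all genes. In the KD 2 fell and 1 rose, against 1.22% and 2.38%. The median responses were -0.21 in WT and -0.03 in the KD. In the interaction 4 were called higher, against 0.455% of all genes, and these encode subunits of respiratory complex I. The complex I mRNAs MT-ND1, MT-ND4L and MT-ND6 were not called. Of the 13, 10 had an unadjusted p under 0.05 in the interaction, and the highest value, 0.32, was that of an mRNA not called. MT-ND5 was 6853, 6813 and 6486 CPM in untreated WT and 5417, 5226 and 5077 after H2O2, and in the KD 5839, 5862 and 5752 against 5707, 5435 and 5090. Its interaction was 0.25 ± 0.05 (adjusted p = 0.00348). MT-ND2 fell by 0.17 in WT and rose by 0.14 in the KD, an interaction of 0.31. MT-ND3 had an interaction of 0.26 and MT-ND4 of 0.2. The cytochrome oxidase mRNAs MT-CO1 (0.05), MT-CO2 (0.01) and MT-CO3 (0.05) were not called. MTND1P23, MTCO1P12 and MTCO3P12, pseudogenes named after mitochondrial genes, were called lower, with interactions of -0.48 to -0.27 over the alternative fits. MTND1P23 lost its call in 6 of the 12 fits without 1 library. The assignment of reads between mitochondrial genes and such copies was not tested.

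Of 24 mitochondrial tRNA and rRNA genes 4 were called higher, MT-TT (0.45), MT-TQ (0.42), MT-TL2 (0.39) and MT-TG (0.3), and MT-TF lower (-0.65). Over all genes 0.455% were called higher and 0.733% lower. Many of the 24 fell in both lines. In WT 10 fell, against 1.06% of all genes. In the KD 7 fell and 2 rose, against 1.22% and 2.38%. Their median responses were -0.28 in WT and -0.09 in the KD. MT-TT was 29, 28.5 and 29.1 CPM in untreated WT, 19.4, 18.7 and 19 in treated WT, 39.4, 41.3 and 34.9 in the untreated KD and 37.5, 34.5 and 32.4 in the treated KD. The libraries were selected for poly(A), so that these short RNAs are measured only where they were captured. Mitochondrial genes held 9.84% to 10.3% of counts in untreated WT, 9.22% to 9.72% in treated WT, 7.56% to 7.86% in the untreated KD and 7.45% to 7.52% in the treated KD, and the part of this share in the calls was not tested. Without the untreated KD library 1, 8 tRNA and rRNA genes and 5 mRNAs were called higher, and without library 1 or 2 of untreated WT, library 1 of treated WT or library 2 of the treated KD 2 tRNA and rRNA genes were. Of 38 nuclear genes for respiratory subunits only COX7A2 was called, lower (-0.2), against 0.733% of all genes. COX7A2 was not called in 10 of the 12 fits without 1 library nor by limma, which called 0 of the 38. In the same 12 fits MT-TQ and MT-TL2 lost their calls in 7 each and MT-ND4 in 6.

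**Figure D5:**
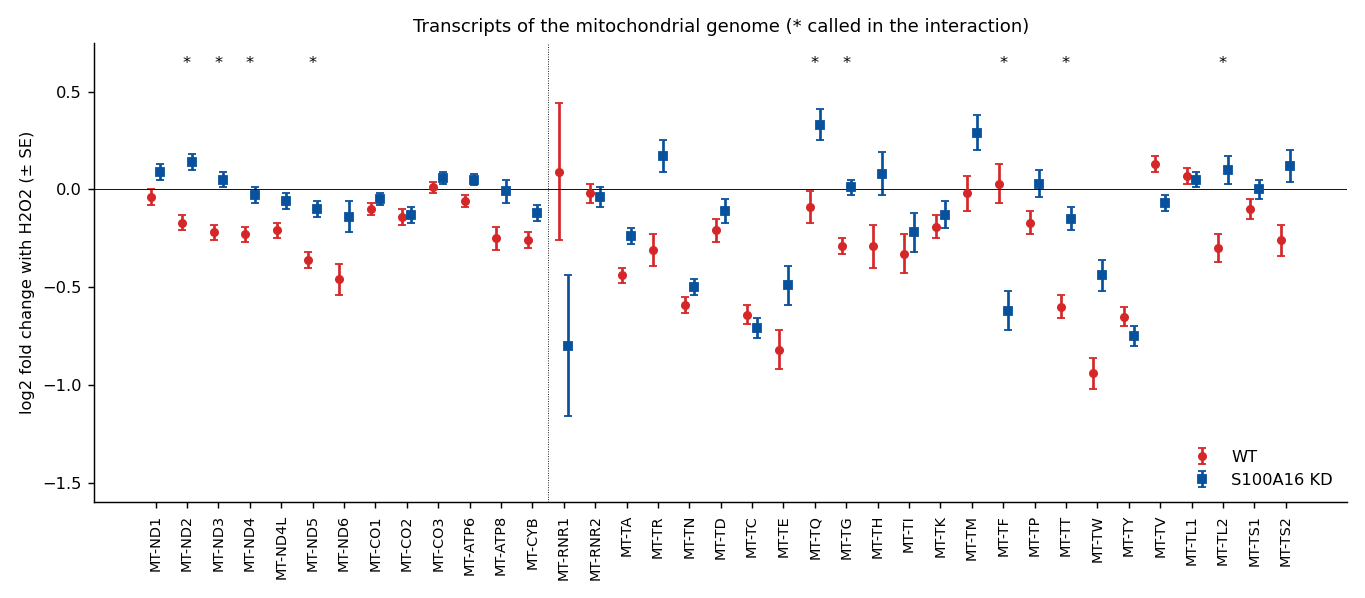
Log2 fold change with H2O2 (± SE, from the fit to 3 libraries per group) of each mitochondrial mRNA (left of the dotted line), tRNA and rRNA in WT (red) and the KD (blue), with stars for those called in the interaction. MT-ND5 lies at -0.36 in WT and -0.1 in the KD.

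Processed pseudogenes, reverse-transcribed copies of mRNAs, made up 15.8% of the genes called lower (25) and 4.9% of all tested. Of the 1057 tested 2.37% were called lower and 0 higher, with 9 higher at an unadjusted p under 0.05 and 1 called higher by DESeq2. Their summed level was 4799, 4877 and 4946 CPM in untreated WT, 5248, 5394 and 5350 in treated WT, 3463, 3358 and 3301 in the untreated KD and 3238, 3107 and 3349 in the treated KD. Treated WT libraries were all above untreated ones, and the KD groups overlapped. EEF1A1P13 was 41.7, 43.9 and 46.9 CPM in untreated WT and 49.1, 56.5 and 55.6 in treated WT, and 28, 26.3 and 24.5 against 20.9, 19.2 and 20.2 in the KD. The 17 source genes that could be matched had interactions from -0.13 to 0.13. Of these 0 were called by edgeR's test, DESeq2 or limma, and 2 had an unadjusted p under 0.05. Because a read of a source mRNA can be assigned to its copy, these values are uncertain. Without the untreated KD library 1, 12 were called lower. Cytosolic ribosomal protein genes, the source of many copies, had 2 of 55 called lower, against 0.733% of all genes. These were RPL32 (-0.22) and RPL15 (-0.21), and 0 were called lower without that library. Leaving out 1 library removed these calls in 7 and 9 of 12 fits.

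The number of calls depended on single libraries and on the fit. Leaving out library 1 or 2 of untreated WT gave 116 and 136 calls, library 2 of treated WT 140, library 2 of the treated KD 150 and library 3 of the treated KD 492. The share of calls that were higher was 38.3%, and it became 52.3% with DESeq2 size factors and 18.1% with total counts alone. A fit over all 18 libraries, which estimates the spread from the other knockdowns as well, called 21 genes, all among the 256, and it called 50 genes for H2O2 in WT and 3 in the KD. In that fit 3 of the EGR and AP-1 factors, 6 of the NR4A, IER and KLF genes, 1 feedback regulator, 3 inflammatory genes and both CLK1 and CLK4 were called. It kept 9 of the 15 genes with the lowest interactions named by rule and lost JUN, CXCL2, DUSP1, DUSP6, MUC6 and CXCL1. Of 80 named genes called, 15 were called in every alternative that tested them. These were EGR1, FOS, FOSB, NR4A1, NR4A2, IER2, IER3, ZFP36, KLF10, RHOB, PTGS2, LIF, CLK1, CLK4 and LPCAT4, and 0 of the 80 reversed. Strand use in counting is not given, and 87.7% of tested genes overlap another gene in the deposited coordinates.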

How the data were processed

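Poly(A) RNA was sequenced by the authors, who deposited whole-number counts per gene for all 18 libraries. The build was GRCh38, per the submitters' processing notes, which also list, with no stated role, DESeq2 1.32.0, StringTie 2.1.4, HISAT2 2.2.1, SAMtools 1.15.1 and FastQC 0.11.9. The counting program, its annotation and its use of strand do not appear in the sources used here. Of low counts 18.6% to 22% were odd, so both mates of a pair may have been counted. A second deposited table of RPKM values was not used.

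Libraries were grouped by their labels. The 12 libraries of WT and the S100A16 KD were fitted with 1 mean per group in edgeR 4.0.16 under R 4.3.3. The filter filterByExpr kept 21551 of 44016 features, TMM set the scaling, and robust quasi-likelihood F tests were run with Benjamini-Hochberg adjustment across every feature kept. In simulated counts of 20977 features the interaction test recovered 91% of 67 genes changed 1.5-fold. It recovered all genes changed 2-fold (67) or 3-fold (66), with 13 false calls. The changed genes had at least 5 CPM, while the median tested gene had 6.08 CPM. Counts were otherwise drawn around 1 mean per gene over all groups. The simulation therefore does not cover lower genes, group differences in level or a library that stands apart. Alternatives were DESeq2 1.42.0, limma 3.58.1 (trend, prior count 2), other scalings, filters and samples, halved counts, a replicate block and leaving out each library.

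Members and gene lists were chosen with earlier results of these data known. Named genes were S100A16, HMOX1, TXNRD1, EGR1, FOS, CLK1 and CLK4, the 15 lowest and 15 highest interactions among called genes with a symbol and a mean of at least 5 CPM, and called members of each list. At most 6 per list were taken by adjusted p, and all for the EGR and AP-1, the NR4A, IER and KLF, and the feedback lists. IL6, CXCL8, HNMT, PTCH1, EEF1A1P13, MTND1P23, MTCO1P12, MTCO3P12 and the genes named without a call fell outside this rule. They were chosen after their values were seen. Same-numbered libraries were not taken as pairs, since 3 of 18 correlations of their deviations exceeded 0.1. Those between libraries numbered 3 were all positive, from 0.07 to 0.18. Libraries numbered 1 had -0.02 to 0.19 and those numbered 2 had -0.02 to 0.03. An effect shared by libraries numbered 3 was not tested. Promoter windows came from RefSeq and were matched by symbol.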

Additional observations from a re-analysis of the deposited data

Results flagged for a closer look

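The response to H2O2 differed between the KD and WT, by the test of the difference itself, for 256 genes in edgeR's quasi-likelihood fit with Benjamini-Hochberg adjustment. In 10 of them the responses of WT and KD both passed the test and went in opposite directions. CLK1 (interaction 0.92), CTD-2231E14.2 (0.41), GADD45A (0.39) and MT-ND2 (0.31) fell in WT and rose in the KD. MUC6 (-0.9), EEF1A1P13 (-0.67), LIF (-0.46), S100A4 (-0.38), LLfos-48D6.2 (-0.38) and EEF1A1P6 (-0.36) rose in WT and fell in the KD. The rise of CLK1 in the KD was not called by limma. EEF1A1P13 and EEF1A1P6 are processed copies of EEF1A1, whose own interaction was 0.02. CTD-2231E14.2 and LLfos-48D6.2 carry clone-based names without a current symbol in the reference tables. The 3 libraries of treated and untreated cells did not overlap in either line for 9 of the 10 genes. In S100A4 the KD groups overlapped, with 58.5, 57.9 and 49.2 CPM untreated and 49.5, 47.9 and 47.7 treated.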

How the results depend on the processing

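The count of 256 genes became 478 with DESeq2, 407 without a filter beyond 1 count, 21 in a fit over all 18 libraries and 425 with a replicate block, which kept all 256. Leaving out 1 library gave 116 to 492. Genes called higher (98) numbered 159 with DESeq2 size factors, 43 with total counts alone, 330 with DESeq2, 235 without a filter, 56 without robust estimation, 4 over 18 libraries, 218 with the block and 28 to 317 with 1 library left out. Genes called lower (158) numbered 17 over 18 libraries and 84 to 175 with 1 library left out. The WT response (551) had 50 calls over 18 libraries and 252 to 592 with 1 library left out. The KD response (775) had 1279 with DESeq2, 3 over 18 libraries and 431 to 957 with 1 library left out. The cause of these shifts was not tested. TXNRD1 changed sign around its -0.01, to 0.00 with DESeq2 size factors or DESeq2, 0.01 without a filter or over 18 libraries, and -0.03 to 0.02 with 1 library left out. Of 80 named calls 44 held in all 12 fits without 1 library and 65 were lost over 18 libraries. Same-numbered libraries had correlations of -0.02 to 0.19, and 8 of 18 comparisons were highest with the own number, so the block was not taken as pairing. Below about 5 CPM, as for EGR2, depth limits what the interaction can show. Outside treated WT, EGR1 (1.17 to 4.7 CPM), FOSB (0.632 to 1.34) and NR4A1 (2.17 to 3.18) were under this level as well.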
